A study of Mus musculus with 6 samples.

Results

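Galectins are small lectins that bind galactose-containing sugar chains. They lack a classical secretion signal, act both inside and outside the cell, and are grouped by architecture into prototype forms with a single sugar-binding domain, a chimera form with a long flexible tail (galectin-3), and tandem-repeat forms with a pair of linked domains. Outside the cell they cross-link glycoproteins such as integrins and CD44, and inside it galectin-3, galectin-8 and galectin-9 gather on damaged lysosomes and endosomes. In peripheral nerve, galectin-1 is abundant in Schwann cells (SCs), whereas galectin-3 (also known as Mac-2) is best known as a marker of phagocytic macrophages and SCs after injury.

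The galectin genes *Lgals1*, *Lgals2*, *Lgals3*, *Lgals4*, *Lgals7*, *Lgals8*, *Lgals9* and *Lgals12*, together with *Lgals3bp*, the gene of a secreted glycoprotein that binds galectin-3, were taken from the deposited table by symbol. All 9 were found among its 59485 genes. The table holds mRNA sequencing of sciatic nerves at postnatal day 4 (P4) from 3 control and 3 mutant mice. Mutants are labelled Ht-PA-Cre; Adar1fl/fl;R26R. Their Cre recombinase is driven by the human tissue plasminogen promoter, which removes the floxed *Adar1* alleles in neural crest (NC) cells and their derivatives, and R26R is a YFP tracer of these cells. Controls are labelled wild-type and, by the breeding described in the methods, also carry floxed *Adar1* and R26R alleles but no Cre. Since the nerve also holds endothelial cells, fibroblasts, macrophages and other cells that do not derive from the NC, more transcript per cell and more cells of a type cannot be told apart here.

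Values are normalised read counts, that is, reads on each gene divided by a size factor per library. Libraries held between 50938349 and 78250094 reads on genes, so counting error is small except for members with few reads. Changes are log2 fold changes of (value + 1), mutant-labelled minus control-labelled, from limma with Benjamini-Hochberg adjusted p-values over 25802 genes. A gene was called when it differed at least 2-fold with a p no larger than 0.05, the limits in the study's methods, which do not say whether that p was adjusted. The unadjusted p was used here. *Adar* itself, the targeted gene, was 1602, 2066 and 1133 in control-labelled replicates 1 to 3 and 11768, 9311 and 9773 in mutant-labelled replicates 1 to 3 (log2 fold change 2.72 ± 0.20 SE, adjusted p = 4.1e-05). The single value per gene does not separate the deleted segment from the rest, so it does not show whether the deletion took place. Directions below follow the labels. The summed level of 6 SC markers ranged from 1123149 to 1487769 in the controls and from 44928 to 198931 in the mutants, and 4 of the 6 were called lower. Skeletal muscle markers summed to between 6110 and 32211 in the controls and between 40329.7 and 306302 in the mutants, with 5 of 6 higher. Of 6 fibroblast and perineurial markers, 2 were lower and 4 not called, with sums of 1222030 to 1393241 against 482137 to 752889. *Col1a1* carried most of these sums, at 1163031 to 1320418 in the controls and 421118 to 700020 in the mutants. *Pdgfra* was not called (log2 fold change 0.16, adjusted p = 0.581). Over all tested genes, 13.9% were called higher and 10.4% lower. The part of these cells in the values below was not tested.

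Of the 9 genes, 5 passed the threshold and rose in mutant-labelled libraries: *Lgals3bp*, *Lgals3*, *Lgals9*, *Lgals7* and *Lgals8*. Among all tested genes 24.2% were called, 13.9% higher and 10.4% lower. Of the 9, 0 were called lower by limma, edgeR or DESeq2, and by the unadjusted p alone limma had 6 higher and 0 lower, against 24.2% higher and 20.8% lower among all tested genes. The median log2 fold change was 1.76 over the 9 genes and 0.03 over all tested genes. The former is the value of *Lgals2*, an uncalled gene with few reads, and is no firm summary, since it was 3.40 with a pseudocount of 0.1, 3.20 without control replicate 2, 2.52 without mutant replicate 1 and between 1.58 and 1.86 when any other single library was left out. The remaining members were *Lgals1*, which rose by less than 2-fold, *Lgals4*, *Lgals2* and *Lgals12*. In 6 of the 9, *Lgals1* and the 5 called genes, every mutant-labelled library lay above every control-labelled library, as in 25.9% of all tested genes. All 9 passed the filter on low values, but *Lgals2* did so only through the mutant-labelled group.

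**Figure D1:**
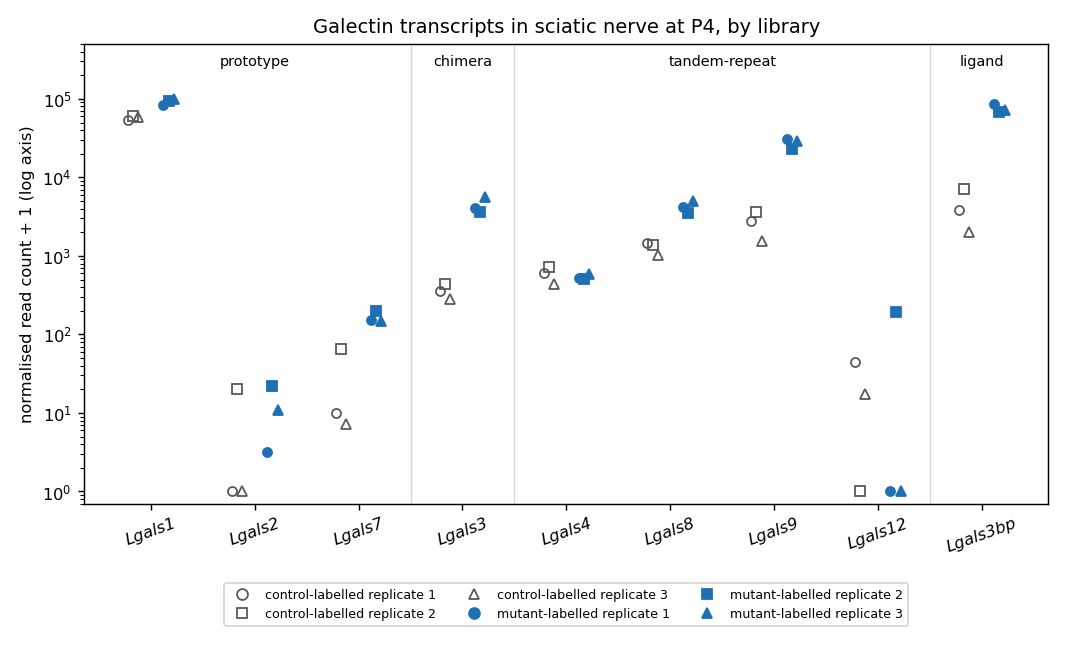
Normalised read count + 1 (log axis) of the 9 genes in each of the 6 libraries, grouped by galectin architecture. Open gray symbols are control-labelled and filled blue symbols mutant-labelled libraries, and the symbol shape gives the replicate number. *Lgals3*, *Lgals7*, *Lgals8*, *Lgals9* and *Lgals3bp* are separated between genotypes by more than 2-fold on average, *Lgals1* is separated by less, and *Lgals2*, *Lgals4* and *Lgals12* overlap.

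*Lgals1*, the gene of the prototype galectin-1, was by far the most abundant member. To compare genes, values were divided by the length of exon covered by any protein-coding transcript of GENCODE M21. Per kb of exon, *Lgals1* had 72268 ± 3755 normalised reads in control-labelled libraries (SD, n = 3), followed by *Lgals3bp* with 1858 ± 1099 and *Lgals9* with 1648 ± 654. *Lgals4* (425 ± 98.5) and *Lgals8* (418 ± 73.4) came next, then *Lgals3* (225 ± 47.7), *Lgals7* (35.1 ± 43.4), *Lgals2* (10.6 ± 18.4) and *Lgals12* (7.19 ± 7.88). Neighbours in this order differed by less than their SDs for *Lgals3bp* and *Lgals9*, for *Lgals4* and *Lgals8* and for *Lgals2* and *Lgals12*, and *Lgals7* and *Lgals2* by less than the SD of *Lgals7*. Counting only exon bases shared by all transcripts exchanged *Lgals3bp* with *Lgals9* and *Lgals4* with *Lgals8*.

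In mutant-labelled libraries the order per kb was *Lgals1* (114981 ± 10478), *Lgals3bp* (32324 ± 4046), *Lgals9* (17129 ± 2470.2), *Lgals3* (2794 ± 661), *Lgals8* (1395 ± 243), *Lgals4* (391 ± 33.3), *Lgals7* (219 ± 40.0), *Lgals12* (23.3 ± 40.4) and *Lgals2* (18.7 ± 16.2). *Lgals3* moved from rank 6 to rank 4, and *Lgals12* and *Lgals2* again differed by less than their SDs. As a share of the per-kb sum of the 8 galectins, without *Lgals3bp*, *Lgals1* made up 96.3% ± 1.14 in the controls and 83.9% ± 2.51 in the mutants. *Lgals9* took 2.19% ± 0.819 and 12.6% ± 2.30, *Lgals3* 0.300% ± 0.0562 and 2.03% ± 0.363, *Lgals8* 0.559% ± 0.111 and 1.02% ± 0.147, and *Lgals7* 0.0453% ± 0.0544 and 0.160% ± 0.0317. These sizes depend on the exon length. Per kb of exon bases shared by all transcripts, an alternative chosen after the values were seen, *Lgals1* made up 93.5% ± 1.82 and 74.9% ± 3.49, *Lgals9* 3.48% ± 1.28 and 18.4% ± 3.06, *Lgals3* 0.506% ± 0.0915 and 3.15% ± 0.539, and *Lgals8* 1.87% ± 0.358 and 3.12% ± 0.412, so that *Lgals3* and *Lgals8* did not differ beyond their spread in the mutants. By both lengths the mean share of *Lgals1* was lower and that of *Lgals3*, *Lgals7*, *Lgals8* and *Lgals9* higher in the mutants, and *Lgals1* remained most of the sum in every library.

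*Lgals1* (GSMG0013360, mm10, chromosome 15, 78926725 to 78930466, plus strand) had 54443, 60205 and 58795 normalised reads in control-labelled replicates 1 to 3 and 82649, 94441 and 98865 in mutant-labelled replicates 1 to 3. The genotypes did not overlap, and each was tight. The mean rose 1.59-fold, a log2 fold change of 0.67 (standard error 0.10, 95% interval 0.44 to 0.90, adjusted p = 0.00131), which stays under the 2-fold limit. The summed SC markers were lower in the mutant-labelled libraries, and the part of SCs in the *Lgals1* values was not tested. A gene without symbol on the opposite strand overlaps *Lgals1*, with mean values of 810.5 and 1233 in the control-labelled and mutant-labelled groups, and the sources do not state whether reads were counted by strand.

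*Lgals2* (GSMG0014226, chromosome 15, 78850862 to 78855530, minus strand), another prototype form, known mainly from the gut, lies 71194 bases from *Lgals1* and was barely detected. Its values were 0, 18.9 and 0 in control-labelled and 2.18, 21.2 and 9.89 in mutant-labelled replicates, which overlap. The log2 fold change of 1.76 had a 95% interval of -1.42 to 4.94 (adjusted p = 0.361). Without control replicate 2, the control library that held all reads of the group, it was 3.20 with an adjusted p of 0.10 and passed the threshold for calling. *Cdc42ep1* on the opposite strand overlaps the gene and is far more abundant, at mean values of 16777 and 14849.7.

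*Lgals7* (GSMG0034262, chromosome 7, 28864386 to 28866284, plus strand) encodes galectin-7, a prototype form typical of stratified epithelium and known as a p53-inducible gene. It was low, with 8.88, 64.3 and 6.34 normalised reads in control-labelled and 149.8, 199.7 and 145 in mutant-labelled replicates. Control replicate 2 stood above the other controls but below every mutant-labelled library. The rise was 3.29 on the log2 scale (standard error 0.77, adjusted p = 0.0117), from 26.5 ± 32.7 to 165 ± 30.2. Its size depended on the library left out and on the scale, at 4.27 without control replicate 2, 2.69 without control replicate 3, and 2.61 both with a pseudocount of 10 and with edgeR on recovered reads. The ratio of the means, 6.23, is smaller than the fitted change, which averages log2 values.

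Because galectin-7 marks keratinocytes, 8 of their markers were read beside it. Their sum ran from 249 to 286 in the controls and from 302 to 389 in the mutants, and the markers went both ways. Of the 7 tested, 3 were called higher, *Krt5*, *Krt14* and *Trp63*, each of which passed the filter on low values through the mutant-labelled group alone, where 13.9% of all tested genes were called higher. *Trp63*, a p53 family factor of basal keratinocytes, had 8.88, 2.83 and 15.2 in control-labelled and 30.6, 81.0 and 131 in mutant-labelled replicates. *Krt5* was at 0 in control replicates 1 and 2 and reached 20.4, 7.72 and 5.93 in the mutants, and *Krt14* was at 0 in control replicates 2 and 3. *Krt1* (mean 20.9 and 8.26) and *Krt10* (200.5 and 166) had all 3 mutant values below the lowest control but were not called, with adjusted p = 0.182 and 0.374. The part of keratinocytes in the *Lgals7* values was not tested.

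*Lgals3* encodes galectin-3, the chimera form (GSMG0011490, chromosome 14, 47373860 to 47386167, plus strand). It had 353, 437 and 285 normalised reads in control-labelled replicates and 4039, 3650.0 and 5632 in mutant-labelled replicates. Every mutant-labelled library lay far above the highest control, and mutant replicate 3 was the highest. *Lgals3* rose 12.4-fold by the means, with a 95% interval of 3.15 to 4.10 on the log2 scale around 3.62, and was called in all 12 alternative settings. The estimate lay between 3.44 and 3.78 in the 6 fits that each lacked 1 library, and *Lgals3* was called in all of them.

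As galectin-3 is a macrophage antigen, 12 macrophage markers were set beside it. Their sum overlapped between genotypes, at 21721 to 27438 in the controls and 23071 to 26600.0 in the mutants, and none was at 0 in any library. Of the 12, 3 were higher (*Aif1*, *Ptprc* and *Fcgr1*) and 3 lower (*Csf1r*, *Mrc1* and *Cx3cr1*), where 13.9% of all tested genes were called higher and 10.4% lower. *Adgre1*, which encodes F4/80, had log2 fold change -0.19 (adjusted p = 0.545) and *Cd68* -0.22 (adjusted p = 0.228). By the unadjusted p alone, 6 were higher, with *C1qa*, *C1qc* and *Itgam* added, and 3 lower, where 24.2% and 20.8% of all tested genes were. The part of macrophages in the *Lgals3* values was not tested.

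Over the 6 libraries, the genes with 1 symbol whose centred log2 values lay nearest to those of *Lgals3* were *Nfil3*, a basic leucine zipper transcription factor (Euclidean distance 0.403), *Ddit3*, which encodes the stress response factor CHOP (0.482), and *Bcl2l14*, a member of the BCL2 family (0.520). *Nfil3* went from 504 ± 103 to 6851 ± 872 and *Ddit3* from 127 ± 12.4 to 1613 ± 257, while *Bcl2l14* was at 0 in every control-labelled library and 10.6 ± 1.16 in mutant-labelled ones.

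*Lgals3bp* (GSMG0007698, chromosome 11, 118392749 to 118401961, minus strand), a secreted scavenger receptor cysteine-rich glycoprotein that binds galectin-3 and is known to respond to interferon, had the largest rise of the 9 genes. Normalised reads were 3845, 7096 and 2043 in control-labelled and 86093, 68598 and 71256 in mutant-labelled replicates. The controls differed widely among themselves, with control replicate 2 the highest and control replicate 3 the lowest, yet every mutant-labelled value lay far above them. The log2 fold change was 4.29 (standard error 0.37, 95% interval 3.44 to 5.14, adjusted p = 7.89e-05), a 17.4-fold rise by the means, and no removal of a single library took it out of the range from 3.84 to 4.74. A gene without symbol on the opposite strand also rose, from a mean of 92.9 to 1638, and stayed far below *Lgals3bp* itself.

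*Lgals9* (GSMG0007060, chromosome 11, 78962979 to 78984924, minus strand) encodes galectin-9, a tandem-repeat form also known to respond to interferon and a ligand of the T cell receptor TIM-3. Its values were 2757, 3661 and 1559 in control-labelled and 30801, 23157 and 28931 in mutant-labelled replicates. Here too control replicate 2 was the highest control, and the genotypes were far apart. The mean rose 10.4-fold, a log2 fold change of 3.45 (standard error 0.28, 95% interval 2.82 to 4.08, adjusted p = 5.26e-05), with 3.11 to 3.73 when each library was left out.

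The promoters of *Lgals9* and *Lgals3bp* are shown because interferon acts through short DNA motifs, the interferon-stimulated response element (ISRE, core GAAA, any 2 bases, GAAA), bound by interferon regulatory factors (IRF), whose shorter core AANNGAAA lies within it, and the gamma-activated site (GAS, TTCNNNGAA). RefSeq promoter windows (GRCm38.p6, 250 bases before to 50 after the start site) were found for 7 of the 9 members, *Lgals2*, *Lgals3*, *Lgals4*, *Lgals7*, *Lgals8*, *Lgals9* and *Lgals3bp*, and searched on both strands. For *Lgals8* the RefSeq start site lies 3205 bases inside the gene as the deposited table gives it. Of the 7 windows, that of *Lgals9* held the ISRE core, at 2 places, and the other 6 did not, whereas 3.44% of 32851 promoter windows held it. The IRF core was in the windows of *Lgals9*, at 3 places that include both ISRE cores, and of *Lgals3bp*, at 1 place, and in 23.9% of all windows. The GAS letters were in none of the 7 windows and in 8.30% of all windows. The sites below run 5′ to 3′ on the minus strand, the strand of both genes, with the motif in capitals.
Lgals9, chr11:78984960-78984989, ISRE core starting 55 bases before the start site: tgacatcagcTTTCTTTTTCtctagacact
Lgals9, chr11:78984890-78984919, ISRE core starting 15 bases after it: atagctgtggTTTCTGTTTCctagctcagc
Lgals3bp, chr11:118401955-118401984, IRF core starting 14 bases before the start site: tgttttctgaaAATCGAAActaggtgaggt
Both *Lgals9* matches are the core read on the other strand. These matches are letters in a window and were not measured as bound.

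The genes nearest to *Lgals9* over the 6 libraries were *C2*, a complement component (Euclidean distance 0.306), *Parp9* (0.395) and *Samd9l* (0.399). *C2* went from 2174 ± 859 to 19697 ± 3436 and *Parp9*, a member of the PARP family linked to interferon responses, from 1335 ± 536 to 15620.0 ± 1959. The nearest to *Lgals3bp* were *Mndal* (0.265), *Xaf1* (0.355) and *Ifi203* (0.423), of which *Mndal* and *Ifi203* belong to a cluster of similar interferon-inducible genes that can share reads. *Xaf1*, an interferon-inducible pro-apoptotic gene, went from 1432 ± 819 to 24437 ± 2812. These are the closest patterns by distance and are a description over 6 libraries that form 2 genotypes.

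*Lgals8* (GSMG0010314, chromosome 13, 12439402 to 12464943, minus strand), the gene of galectin-8, a tandem-repeat form that senses damaged vesicles, had 1441, 1371 and 1023 normalised reads in control-labelled and 4220.3, 3540.0 and 5025 in mutant-labelled replicates. It rose 3.33-fold by the means with no overlap, a log2 fold change of 1.74 (standard error 0.17, 95% interval 1.34 to 2.13, adjusted p = 0.000156), the smallest among the called members. The overlapping *Heatr1* on the opposite strand had mean values of 54.0 and 132. Nearest in pattern were *Nhlrc2* (0.157), *Slit2*, a secreted guidance ligand (0.196), and *Eps8*, an actin regulator (0.244). *Slit2* went from 1214 ± 268 to 3995 ± 490.4. For *Lgals7* the nearest genes, *Fut1* (0.738), *Slc28a1* (0.746) and *Ceacam16* (0.837), had few reads and lay further away. These 3, like *Bcl2l14*, passed the filter on low values through the mutant-labelled group alone, where values near 0 rest on the pseudocount of 1.

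*Lgals4* (GSMG0034261, chromosome 7, 28833794 to 28841703, plus strand), a tandem-repeat form of gut epithelium, is 22682 bases from *Lgals7*. It had 609, 712 and 442 normalised reads in control-labelled and 520.1, 508 and 593 in mutant-labelled replicates. The mutant-labelled values fell within the range of the controls. The log2 fold change was -0.10 with a 95% interval of -0.55 to 0.36 (adjusted p = 0.737), and its sign turned when libraries were rescaled to the same total (0.07) or control replicate 2 was left out (0.06). Some mouse strains carry *Lgals6*, a near-identical copy of *Lgals4*, so these reads cannot be assigned to *Lgals4* alone. Of the 6 gut epithelium markers, *Cdx2* and *Fabp2* were at 0 in all libraries, *Vil1* was called higher after passing the filter through the mutant-labelled group alone, and the sum ran from 40.6 to 93.3 in the controls and from 89.0 to 158 in the mutants, below *Lgals4* in each.

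**Figure D2:**
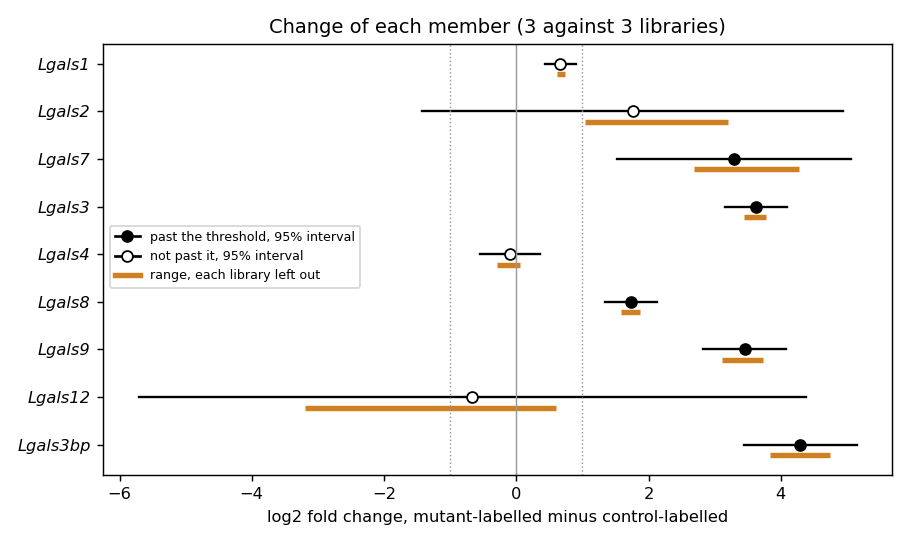
Log2 fold change of each gene, mutant-labelled minus control-labelled, over 3 against 3 libraries. Black bars are 95% intervals, filled circles passed the threshold, orange bars span the values when each library is left out, and dotted lines mark a 2-fold change. *Lgals3bp*, *Lgals3*, *Lgals9*, *Lgals7* and *Lgals8* lie beyond the 2-fold line with their whole interval, *Lgals1* lies between 0 and that line, and the intervals of *Lgals2*, *Lgals4* and *Lgals12* include 0.

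*Lgals12* (GSMG0020053, chromosome 19, 7596652 to 7607193, minus strand) encodes galectin-12, a tandem-repeat form of adipocytes, where it sits on lipid droplets. It had 43.3, 0 and 16.5 normalised reads in control-labelled and 0, 194 and 0 in mutant-labelled replicates. A single mutant-labelled library thus carried all reads of its group, and the genotypes overlapped (log2 fold change -0.66, 95% interval -5.70 to 4.38, adjusted p = 0.839). The group means, 19.9 in the controls and 64.6 in the mutants, went the other way, as did edgeR (1.68) and DESeq2 (1.70). Several adipocyte markers had a like order of libraries. *Adipoq*, the gene of adiponectin, was 1134, 7.56 and 362 in control-labelled and 16.7, 4955 and 13.8 in mutant-labelled replicates. *Plin1*, which encodes a lipid droplet coat protein, was 253, 0 and 132 and then 2.18, 893 and 0. *Cidec*, another lipid droplet gene, was 109, 0 and 15.2 and then 4.36, 427 and 0. For these markers and *Lep*, as for *Lgals12*, mutant replicate 2 was the highest library, control replicate 1 the second and control replicate 3 the third, whereas *Fabp4* and *Plin4* shared the highest library but not the third. None of the 6 adipocyte markers passed the threshold, and their sum ran from 5414 to 12089 in the controls and from 3351 to 25591 in the mutants.

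**Figure D3:**
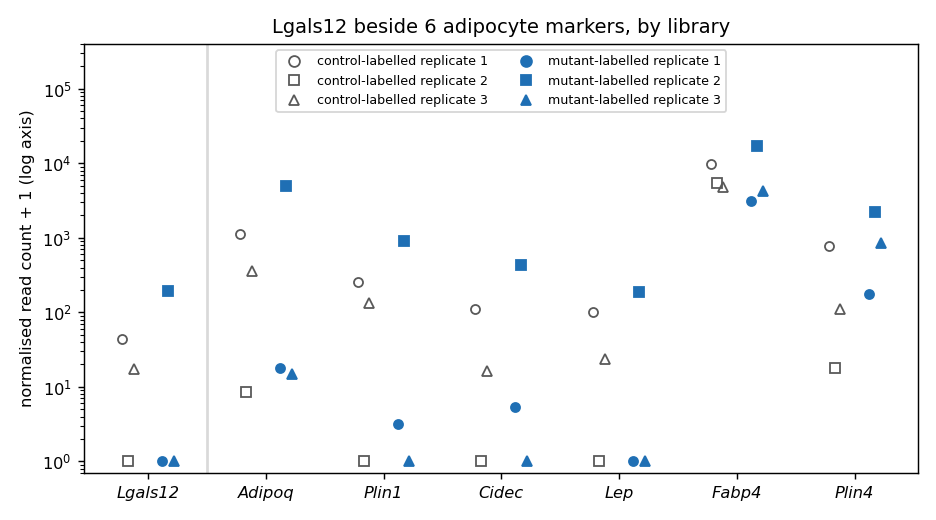
Normalised read count + 1 (log axis) of *Lgals12* and of 6 adipocyte markers in each library, with symbols by genotype label and replicate number. Mutant replicate 2 (filled square) is the highest library for every gene shown, and *Lgals12* reads were found only there and in control replicates 1 and 3.

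Galectins act through the glycoproteins they bind. Of 30 glycoprotein partners, 10 rose and 0 were called lower in limma, with a median log2 fold change of 0.67. edgeR and DESeq2 also called 10 higher and 0 lower. Among all tested genes 13.9% were called higher and 10.4% lower. By the unadjusted p alone, 16 partners were higher and 3 lower, against 24.2% and 20.8% of all tested genes. The 3 were *Trem2*, *Lamp1* and *P4hb*, named after their values were seen, with log2 fold changes of -0.95, -0.74 and -0.51. *Trem2* passed the 2-fold limit (-1.11) without mutant replicate 2.

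*Tnfrsf9*, which encodes the T cell costimulatory receptor 4-1BB, a galectin-9 partner, had the largest fitted change of the partners. It passed the filter on low values only through the mutant-labelled group. It had 1.11, 0 and 1.27 normalised reads in control-labelled and 121, 159 and 68.2 in mutant-labelled replicates, at least 35-fold higher against a floor of 3 reads per control library (adjusted p = 0.000311), where the floor covers counting error only. *Havcr2*, the gene of TIM-3, rose from 88.8, 200.3 and 98.8 to 249, 345 and 293 (log2 fold change 1.27, 95% interval 0.50 to 2.05, adjusted p = 0.0195). Both are found on immune cells, and 4 of the 5 tested of 6 T and NK cell markers were called higher, against 13.9% of all tested genes, with sums of 98.8 to 203 in the controls and 336 to 471 in the mutants. *Cd3d*, *Cd8a* and *Ncr1* were at 0 in all controls, and *Cd8a* and *Ncr1*, which are among the 4, passed the filter through the mutant-labelled group alone. *Cd4*, also among the 4, overlapped between genotypes (log2 fold change 1.05, adjusted p = 0.0542) and made up most of each control sum, at 153, 92.6 and 69.7. The fifth tested marker, *Cd3e*, overlapped as well (log2 fold change 0.40, adjusted p = 0.742). The part of these cells was not tested.

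*Cd44*, a hyaluronan receptor bound by several galectins, rose from 1359 ± 193 to 5448 ± 695 (log2 fold change 2.0, adjusted p = 3.01e-05). *Tlr4*, a galectin-3 partner of innate immunity, went from 560.0 ± 123 to 1712 ± 153 (1.63, adjusted p = 0.000245). *Mertk*, a phagocytosis receptor bound by galectin-3, had 485 ± 108 and 497 ± 56.1, a log2 fold change of 0.05 with a 95% interval of -0.41 to 0.51 (adjusted p = 0.859).

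Among 8 genes that work with galectins at damaged lysosomes, 7 were tested and none was called by limma, edgeR or DESeq2 in either direction, where limma called 24.2% of all tested genes. By the unadjusted p alone, which 24.2% of all tested genes passed as higher and 20.8% as lower, *Sqstm1*, the gene of the autophagy receptor p62, was higher (log2 fold change 0.85, adjusted p = 0.00052) and *Tecpr1* and *Ulk1* were lower (-0.78 and -0.70), all named after their values were seen. *Calcoco2*, whose protein NDP52 binds galectin-8 in human cells, had 0, 16.1 and 2.53 normalised reads in control-labelled libraries and none in mutant-labelled ones and was not tested. *Trim16*, a galectin-3 partner listed together with *Fbxw10*, had 118 ± 20.7 and 158 ± 11.6 (0.44, adjusted p = 0.232).

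Glycan enzymes set which sugars galectins can bind, and 17 of the 18 listed were found and tested. Of these, 3 (17.6%) fell and 2 (11.8%) rose, against 10.4% and 13.9% of all tested genes, with a median log2 fold change of 0.24. By the unadjusted p alone, 5 were lower and 7 higher, against 20.8% and 24.2% of all tested genes. The median is the value of *B3gnt2*, which is listed together with *Commd1*, and *C1galt1c1* is listed together with *Cul4b*. Both are among the 7. *St6gal1*, which caps galactose with alpha-2,6 sialic acid and thereby blocks binding of several galectins, had 6086, 5951 and 6538 normalised reads in control-labelled and 1896, 954 and 1288 in mutant-labelled replicates, with no overlap (log2 fold change -2.22, standard error 0.22, adjusted p = 0.000148). *Mgat3*, whose product adds the bisecting GlcNAc that hinders branching, fell from 18471 ± 960.4 to 3994 ± 1921 (-2.32, adjusted p = 0.000472), and *Fut8*, the core fucosyltransferase, from 12185 ± 982 to 3305 ± 1272 (-1.96, adjusted p = 0.000677). In all 3, mutant replicate 1 was the highest and mutant replicate 2 the lowest of the mutant-labelled libraries. The summed SC markers had the same order, and their part in these falls was not tested.

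*B4galt1*, which adds the galactose itself, and *C1galt1*, which starts core 1 O-glycans, both rose with log2 fold changes of 1.03 (adjusted p = 0.000882 and 0.0101), at the edge of the 2-fold limit. *B4galt1* lost its call without control replicate 2 (0.95), control replicate 3 (0.97) or mutant replicate 3 (0.99), and *C1galt1* without control replicate 2 (0.88), mutant replicate 2 (0.88) or mutant replicate 3 (0.99). *Mgat5*, which builds the branched N-glycans preferred by galectin-3, had 217 ± 37.2 and 154 ± 43.9 (-0.51, 95% interval -1.15 to 0.14, adjusted p = 0.198).

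**Figure D4:**
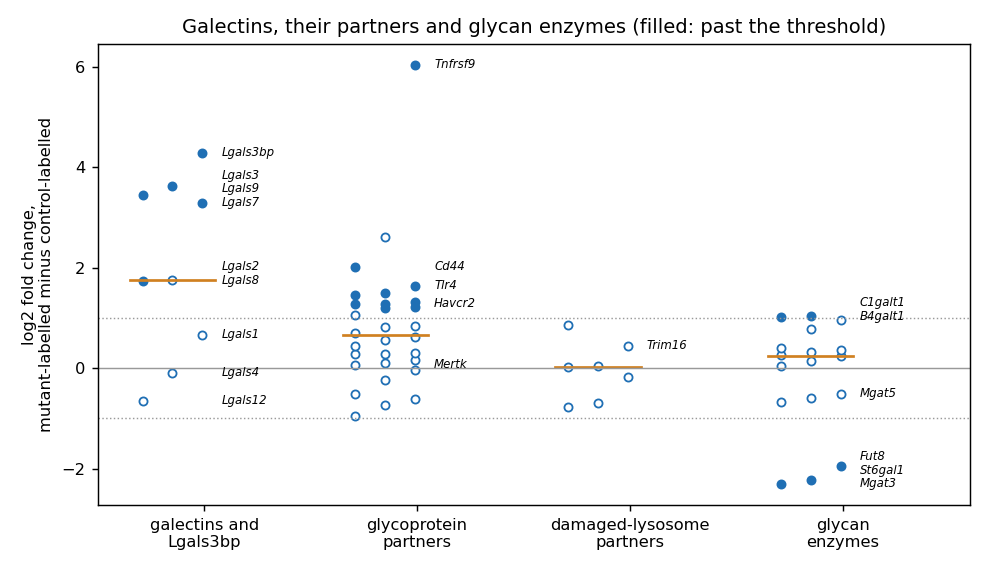
Log2 fold change, mutant-labelled minus control-labelled, of the tested genes in each list. Filled circles passed the threshold, orange bars are medians, dotted lines mark 2-fold changes, and labels name the genes given in the text. The 5 called galectin genes lie above the upper dotted line, the partners spread mostly upwards with *Tnfrsf9* far above, and *Mgat3*, *St6gal1* and *Fut8* lie well below the lower dotted line.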

How the data were processed

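Total RNA of sciatic nerves was sequenced as oriented cDNA of the poly-A fraction. The authors mapped reads with STAR 2.4.0 on mm10, counted those on constitutive regions of FAST DB genes, and deposited a signal per gene and library, that is, counts divided by a DESeq2 size factor. Dividing by the value of 1 read gave whole numbers (within 0.01 read) for 100% of values in each of the 6 libraries, so reads were recovered for edgeR and DESeq2. For the main test, log2(value + 1) was fitted with limma (lmFit, eBayes with trend) without covariates on genes with a mean of at least 10 in at least 1 genotype, with Benjamini-Hochberg adjustment across every gene in the fit. With 3 against 3 libraries an exact two-sided permutation test cannot go below 0.1. Intervals are 95% intervals of the fit. The scripts were tested on simulated data.

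The members and lists were chosen with earlier results of these data known. Named were all members, in each list up to 3 called genes in each direction with the largest change, 6 preset genes (*Havcr2*, *Mertk*, *Calcoco2*, *Trim16*, *Mgat5* and *St6gal1*), and the 3 genes nearest to each called member. The labels state no pairing between control and mutant animals, so none was used. Alternatives were other pseudocounts (0.1 and 10), filters, scalings, eBayes without trend, an adjusted p, edgeR, DESeq2, a replicate block and leaving out each library. R 4.3.3, limma 3.58.1, edgeR 4.0.16, DESeq2 1.42.0 and Python 3.11.15 were used.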

Additional observations from a re-analysis of the deposited data

How the results depend on the processing

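The counts of called members (5 higher, 0 lower) were the same under 12 other settings, and *Lgals3*, *Lgals7*, *Lgals8*, *Lgals9* and *Lgals3bp* were called in all of them and with each library left out. Without control replicate 2, *Lgals2* made them 6. Rescaling to the same total moved the median change over all genes from 0.03 to 0.19 and brought 1 damaged-lysosome gene, *Sqstm1*, past the threshold. Rescaling to the same 75th percentile called 1 glycoprotein partner lower (*Trem2*) and 0 glycan enzymes higher. With each library left out, 0 to 1 partners were called lower and 0 to 3 enzymes higher. *Lgals4* had 0.067 at the same total and -0.29 to 0.0561 with libraries left out. *Lgals12* had 0.18 with a pseudocount of 10, 1.68 with edgeR, 1.70 with DESeq2 and -3.20 to 0.60 with libraries left out, none of them called. The causes were not tested. With a replicate block, 5 members were called higher and 6149 of all genes were called against 6251. Deviations of same-numbered libraries correlated between -0.06 and 0.01, and the labels do not state whether these libraries are paired. Few reads limit *Lgals2*, *Lgals7* and *Lgals12*.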

Other observations

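*Lgalsl*, a galectin-like gene outside the members that encodes a protein without sugar binding, was looked up after the other values were seen. It had 3285, 3400 and 3200 normalised reads in control-labelled and 3179, 4604 and 3506 in mutant-labelled replicates, which overlap, and its log2 fold change was 0.17 (95% interval -0.14 to 0.49, adjusted p = 0.367). *Grifin*, a galectin-related gene of the lens, had 6 reads in control replicate 2, 6 in mutant replicate 1 and none in the other libraries. Among the controls, *Lgals3*, *Lgals4*, *Lgals7*, *Lgals9*, *Lgals3bp* and *Adar* had the same order, whether or not they were called, with control replicate 2 the highest and control replicate 3 the lowest, and *Lgals9*, *Lgals3bp* and *Adar* also shared the order of the mutant-labelled libraries, from mutant replicate 1 to 3 to 2.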
